A study of Caenorhabditis elegans with 15 samples.

Results

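Intestinal overexpression of the active phosphatase ACP7 was compared with intestinal overexpression of its phosphatase-inactive form, ACP7-7A, in whole Caenorhabditis elegans. The comparison took every library that the labels assign to either construct, which is 10 of the 15 libraries of the study, 5 against 5, and no measured value entered the choice. Of 46929 genes in the table, 15242 had enough reads in these 10 libraries to be tested. The study asks what the active secreted phosphatase does to the transcriptome beside wild type and beside the inactive form, and the direct comparison of the constructs bears on the second of these. ACP7 OE is strain ABR275, in which ges-1p, the gut-specific promoter of an esterase gene, drives F21A3.11 (ACP7) in the intestine, followed by a trans-spliced red fluorescent reporter, WormScarlet, and the 3′ UTR of the muscle myosin gene unc-54. ACP7-7A OE is strain ABR484, with the same arrangement around the sequence labelled F21A3.11-7A, which the labels call catalytically dead. The 2 groups are also called the active form and the inactive form below. Wild type is strain N2 with no transgene, and its levels are given beside the others without entering the tests. Each construct is represented by 1 strain, so the form of the enzyme, the strain and the amount of transgene RNA cannot be told apart. Each replicate was a separate extraction of poly(A) RNA from about 1000 worms. The labels give neither age nor stage nor culture, so the p-values measure the spread between these extractions.

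Acid phosphatases remove phosphate groups from other molecules in acidic surroundings, and several are secreted or sit in lysosomes. The intestine of C. elegans is the animal's digestive, storage and first-line defence organ. Its cells fill the gut lumen and their own acidic lysosome-related organelles with cathepsins, aspartyl proteases, lysozymes, saposin-like pore formers and C-type lectins, and they also make the yolk that passes to the oocytes.

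The RNA of the active construct stood at less than 50% of the level of the inactive construct. F21A3.11 (chromosome V, 15530783 to 15533212, minus strand, build WBcel235) was at 568, 602, 595, 647 and 637 CPM (counts scaled to library size) in the 5 ACP7 OE libraries and at 1051, 1132, 1559.9, 1547 and 1507 in the 5 ACP7-7A OE libraries, with wild type at 16.1, 13.98, 15.5, 12.96 and 16.6. Every library of both constructs was above wild type, every ACP7-7A OE library was above every ACP7 OE library, and ACP7-7A OE libraries 1 and 2 were below the other 3 of their group. The log2 fold change of ACP7 OE over ACP7-7A OE was -1.16 ± 0.11 (SE), with an adjusted p of 8.1e-05 in edgeR's quasi-likelihood test with Benjamini-Hochberg adjustment, which is the test behind all adjusted p-values here. WormScarlet was at 846, 851, 801, 966 and 881 CPM with the active form and 1550.0, 1645, 2376, 2365 and 2182 CPM with the inactive form (log2 fold change -1.22 ± 0.13, adjusted p = 0.00022). It kept a steady proportion to F21A3.11, with a ratio of the levels of 1.35 to 1.49 in the active and 1.45 to 1.53 in the inactive strain. The 2 genes that lent their flanks to the construct went in different directions. ges-1 itself was at 39.9, 42.3, 39.4, 51.98 and 47.5 CPM with the active form and 32.7, 33.8, 35.8, 35.4 and 34.4 with the inactive form, without overlap (log2 fold change 0.36 ± 0.08, adjusted p = 0.01), beside 43.7 ± 2.97 (SD, n = 5) in wild type. unc-54 was at 1425, 929, 912, 971 and 1032 CPM with the active form and 1193, 1387, 2366, 2291 and 2459.7 with the inactive form, with overlap, and did not pass (log2 fold change -0.88 ± 0.24, adjusted p = 0.068). That call turned on single libraries: unc-54 passed without ACP7 OE library 1 (adjusted p = 0.04) or without ACP7-7A OE library 1 (adjusted p = 0.026). Reads from the construct's copy of the 3′ UTR may be counted in unc-54. The gene that the annotation names acp-7 is a different locus and did not pass, at 4.46 CPM with the active form and 5.602 with the inactive form (log2 fold change -0.33 ± 0.21, adjusted p = 0.4).

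**Figure D1:**
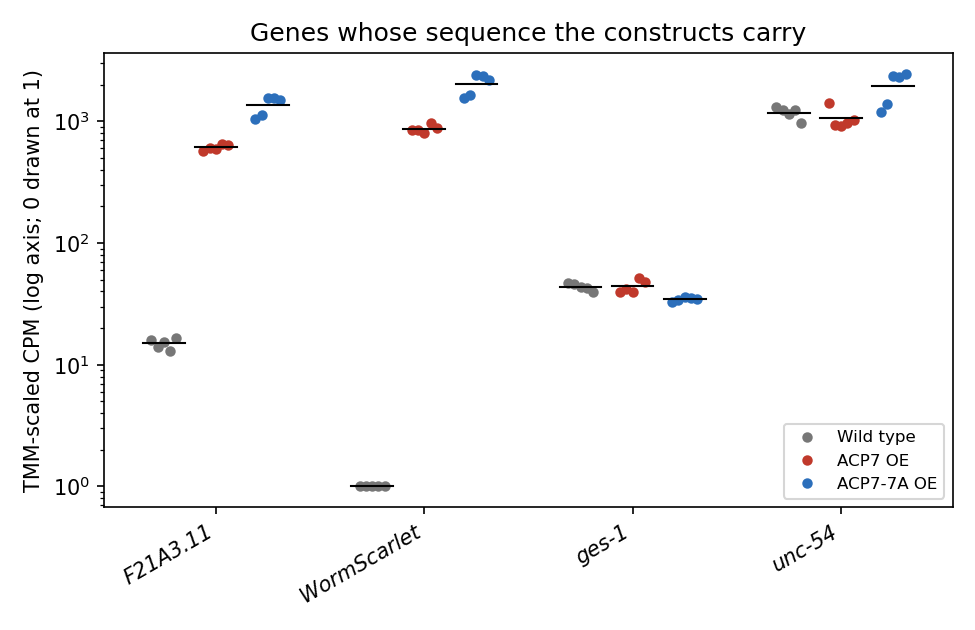
TMM-scaled CPM on a log axis for the 4 genes whose sequence the constructs carry. Each point is a library and each bar the mean of 5; F21A3.11 and WormScarlet are higher in every ACP7-7A OE library than in any ACP7 OE library, and wild type WormScarlet, at 0, is drawn at 1.

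Between the constructs, 1100 of 15242 genes differed at an adjusted p under 0.05 (7.22%), 636 higher in ACP7 OE (4.17%) and 464 lower (3.04%). The genes that were higher changed more: 213 of them were at least 2-fold higher (1.4% of genes tested) against 41 at least 2-fold lower (0.269%), together 1.67%, and the median size of the change was 0.61 on the log2 scale among the higher genes and 0.35 among the lower. Past 8-fold there were 106 genes, and all of them were higher. CPM of the 2 groups did not overlap for 480 of the 636 genes that were higher and for 302 of the 464 that were lower, where 7.47% of all genes tested showed no overlap. The wild type mean lay between those of the constructs for 479 of the first and 359 of the second, below both for 66 and 60, and above both for 91 and 45. The number called depended on single libraries: it was 1766 without ACP7 OE library 1, 726 without library 2, 732 without library 3, 629 without library 4 and 692 without library 5 of that group, and 1764 without ACP7-7A OE libraries 1 and 2. The balance of directions turned as well, with 876 genes higher and 890 lower without ACP7 OE library 1, and 863 higher and 901 lower without ACP7-7A OE libraries 1 and 2.

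**Figure D2:**
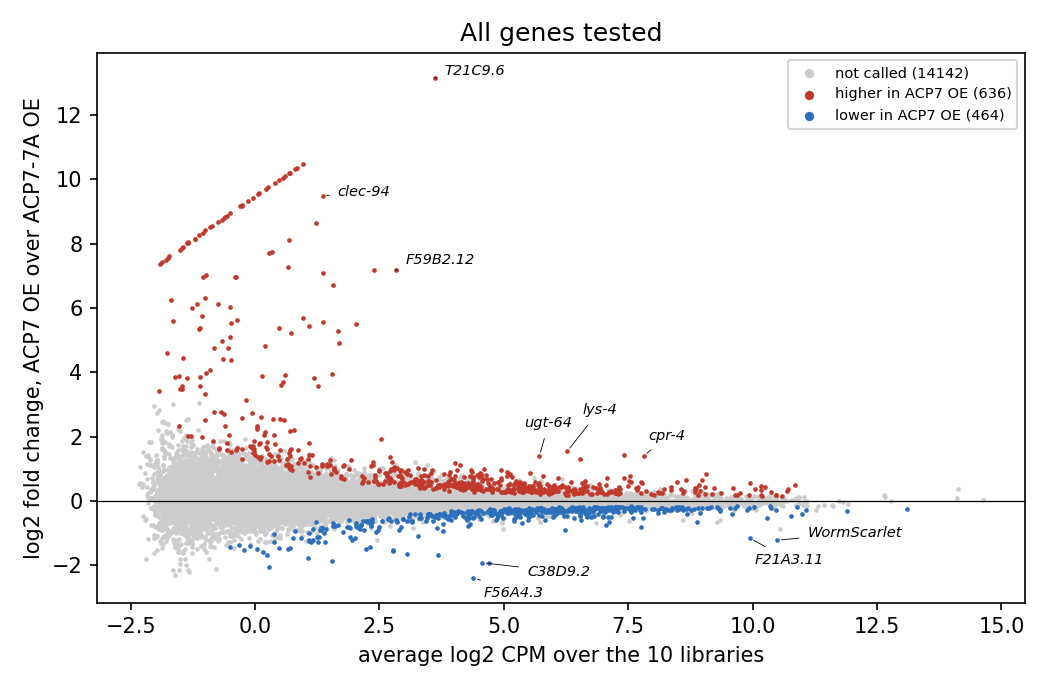
Log2 fold change of ACP7 OE over ACP7-7A OE against average log2 CPM over the 10 libraries for the 15242 genes tested, with 636 higher genes in red and 464 lower genes in blue. The points that rise far above the rest at low average level are genes with few or no counts in ACP7-7A OE, whose fitted fold changes depend on a prior count.

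Total counts ran from 39180648 to 58077047 over the 10 compared libraries, in which 17186 to 18610 genes had a count. ACP7-7A OE libraries 1 and 2 stood apart from all others on the first principal component (51.5% of the variance), at -33.8 and -35.4 beside -5.64 to -2.87 in the other 3 of that group and 9.01 to 20 in ACP7 OE. The same 2 libraries were lower than all others in sperm and collagen RNA, as the levels of these lists below show. For muscle, library 1 was lowest (5442 CPM), but library 2 (6286 CPM) lay within the ACP7 OE range of 6048 to 7481 CPM. Libraries 3 to 5 of that group, at 9169 to 9689 CPM, were above every ACP7 OE and wild type library (wild type 5917 to 8405 CPM). Libraries 3 to 5 also stood apart on the second component (22.1% of the variance), at -21.3 to -18, where the other compared libraries were positive. Markers of intestine, muscle, hypodermis, germline and neurons were all present. Of the markers of males, cwp-1 had 36 counts over the 5 ACP7 OE libraries and 0 over the 5 ACP7-7A OE libraries, lov-1 had 17 and 3, and pkd-2 had 49 and 34. In wild type, cwp-1, lov-1 and pkd-2 had 0, 1 and 8 counts. Also higher with the active form were cwp-2 (36 and 14), cwp-3 (6 and 0), clec-164 (10 and 4) and mab-23 (28 and 5). So were mab-3 (202 and 105), try-5 (152 and 51) and plg-1 (469 and 382). In the rest of that list of 14, cwp-4 (87 and 85) and swm-1 (2423 and 2406) were level. The others, klp-6 (53 and 102) and cwp-5 (27 and 38), went the other way.

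The cysteine cathepsins were higher in ACP7 OE as a group. Of 11 listed genes 10 were tested, 8 were higher (80%, beside 4.17% of all genes), none was lower, and the median log2 fold change was 0.35 beside 0.00 over all genes. These papain-type proteases break down proteins in the gut lumen and in lysosomes. cpr-4, a cathepsin B-like enzyme (chromosome V, 6614674 to 6615851, plus strand), was at 321, 309, 303, 345 and 349 CPM with the active form and at 124, 134, 112.05, 131 and 117 CPM with the inactive form. The groups were far apart, and wild type lay between them at 248 ± 35.9 CPM (SD, n = 5). This made cpr-4 2.63-fold higher (log2 fold change 1.40 ± 0.06, adjusted p = 3.1e-10), a p-value that no other gene undercut. cpr-1, a gut cathepsin B-like enzyme, was at 260.4, 212, 214, 277 and 275 CPM with the active form and 115, 125, 73.5, 71.6 and 75.6 CPM with the inactive form (log2 fold change 1.43 ± 0.19, adjusted p = 0.0023). For cpr-1, ACP7-7A OE libraries 1 and 2 were the highest of their group but still below every ACP7 OE library. The abundant members moved by smaller amounts. cpl-1, the cathepsin L-like enzyme, was at 1841 ± 84.7 CPM against 1486 ± 64.7 (SD, n = 5 each; log2 fold change 0.31 ± 0.05, adjusted p = 0.00049). cpr-6 was at 1397 ± 36.5 CPM against 1041 ± 85.3 (log2 fold change 0.42 ± 0.05, adjusted p = 7.6e-05), and cpz-1, the cathepsin Z-like enzyme, at 520.0 ± 29.1 against 396 ± 24.7 (log2 fold change 0.39 ± 0.05, adjusted p = 0.00017). The summed level of the cathepsins was 5500 to 6241 CPM with the active form against 4015 to 4634 CPM with the inactive form. Without ACP7-7A OE libraries 1 and 2, 6 members were higher and 1 was lower.

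Aspartyl proteases, which work in the same acidic compartments, were higher for 6 of the 12 tested of 18 listed (50%) with none lower and a median log2 fold change of 0.28. asp-13 was at 399, 445, 425, 438 and 446 CPM with the active form and 287, 305, 290.0, 294 and 266 CPM with the inactive form, without overlap (log2 fold change 0.58 ± 0.05, adjusted p = 9.5e-07). asp-3, a lysosomal cathepsin D-like enzyme, was at 1189 ± 68.8 CPM against 922 ± 47.6 (log2 fold change 0.37 ± 0.05, adjusted p = 0.00022). asp-12 was lower in level, at 9.99 ± 1.34 CPM against 5.17 ± 0.527 (log2 fold change 0.95 ± 0.14, adjusted p = 0.00024). asp-2 passed as well (log2 fold change 0.42 ± 0.07, adjusted p = 0.00074), but it overlaps inx-10 on the opposite strand and the strand setting of the counting is unknown, so its reads may be shared. asp-1, an intestinal enzyme, and asp-6 made up the other 2, with log2 fold changes of 0.50 and 0.37.

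**Figure D3:**
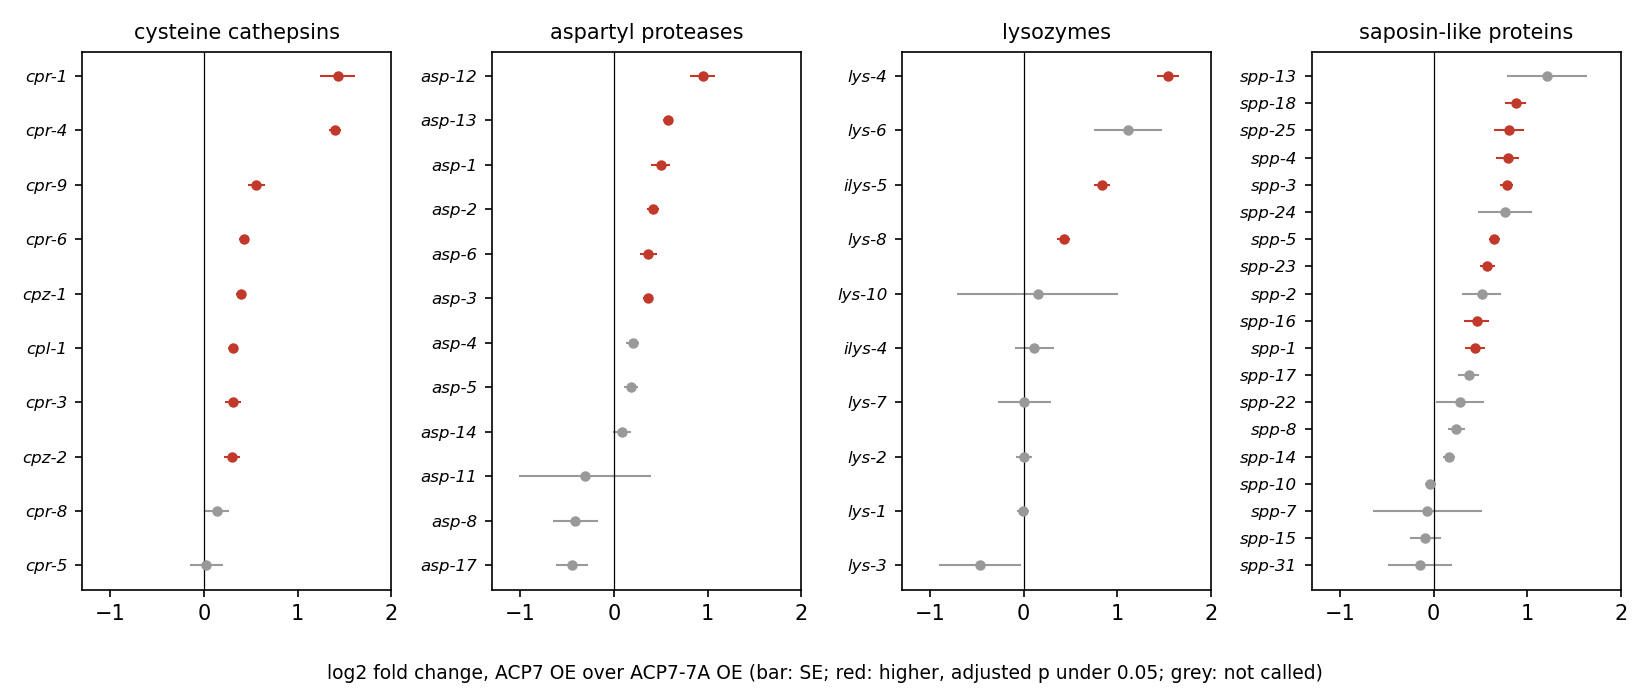
Log2 fold change of ACP7 OE over ACP7-7A OE with its SE for every tested cysteine cathepsin, aspartyl protease, lysozyme and saposin-like gene; red marks genes with an adjusted p under 0.05. Most points lie right of 0, and cpr-1, cpr-4 and lys-4 lie farthest right among the abundant genes.

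The remaining lysosomal machinery did not follow the proteases. Of 30 V-ATPase subunits and lysosomal proteins tested, none was higher and 1 was lower, lmp-1, a lysosomal membrane glycoprotein (log2 fold change -0.19 ± 0.05, adjusted p = 0.041), whose call was lost without any of 7 single libraries. Of the 17 other acid phosphatases tested, pho-11 and pho-14 were lower and pho-13 was higher. pho-14 was at 42.1, 37.2, 35.5, 35.8 and 37.96 CPM with the active form and 52.5, 52.3, 47.2, 55.8 and 55.4 CPM with the inactive form (log2 fold change -0.48 ± 0.07, adjusted p = 0.00026). pho-11 was at 117 ± 12.7 CPM against 166 ± 9.38 (log2 fold change -0.50 ± 0.07, adjusted p = 0.00015) and pho-13 at 21.8 ± 2.58 against 15.6 ± 2.73 (log2 fold change 0.48 ± 0.12, adjusted p = 0.024). pho-11 and pho-13 each overlap a gene on the opposite strand, and the call of pho-13 was lost without ACP7 OE library 2, 3, 4 or 5. The 4 phosphate transporters tested gave no call, with pitr-1, a sodium-dependent carrier, at 300.0 ± 14.6 CPM against 320.2 ± 10.8 (log2 fold change -0.09 ± 0.05, adjusted p = 0.27).

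Lysozymes, which cut bacterial cell walls, were higher for 3 of the 10 tested of 16 listed and lower for none, with a median of 0.13. lys-4 was at 105, 107, 114, 128 and 121 CPM with the active form and 38.1, 53.97, 35.96, 35.1 and 34.5 CPM with the inactive form, beside 62.98 ± 15.4 in wild type. Library 2 was the high one among the ACP7-7A OE libraries, and no ACP7 OE library came near it. The difference was 2.91-fold (log2 fold change 1.54 ± 0.12, adjusted p = 5.8e-06). ilys-5, an invertebrate-type lysozyme, was at 663, 647, 625, 726 and 749 CPM with the active form and 402, 462, 325, 353 and 371 CPM with the inactive form (log2 fold change 0.83 ± 0.08, adjusted p = 2.2e-05). lys-8 was higher too (log2 fold change 0.43 ± 0.07, adjusted p = 0.0014), and it overlaps C17G10.13 on the opposite strand. lys-1, lys-2 and lys-7 did not pass, with log2 fold changes of -0.01, 0.01 and 0.01. Without ACP7-7A OE libraries 1 and 2, 5 lysozymes were higher, while the number higher over all genes rose from 636 to 863.

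Saposin-like proteins, small secreted peptides that open pores in bacterial membranes, were higher for 8 of the 19 tested of 30 listed (42.1%) with none lower and a median of 0.46. spp-3 was at 227, 233, 229, 240.2 and 243 CPM with the active form and 132, 152, 113, 143 and 144 CPM with the inactive form (log2 fold change 0.78 ± 0.07, adjusted p = 7.8e-07). spp-5, a caenopore of the gut, was at 569, 627, 597, 623 and 655 CPM with the active form and 388, 438, 348, 381 and 406 CPM with the inactive form (log2 fold change 0.65 ± 0.06, adjusted p = 1.8e-06). Neither gene's groups overlapped, and wild type lay between them for both. spp-18 was at 29.8 ± 4.59 CPM against 16.205 ± 1.73 (log2 fold change 0.88 ± 0.11, adjusted p = 6.2e-05), and spp-23 at 44.7 ± 2.59 against 30 ± 3.34 (log2 fold change 0.57 ± 0.08, adjusted p = 0.00023).

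C-type lectins, secreted sugar-binding proteins many of which are made in the gut during infection, held more changed genes than any other list. Of 264 listed genes 140 were tested, 41 were higher (29.3%) and 4 were lower, with a median of 0.40. Of the 41, 23 were nearly absent outside ACP7 OE. Those 23 entered the tested set through the group where they are high, so the share and the median partly restate the filter, as they do for other lists that hold genes past 8-fold. Others were abundant with modest differences, and some were rare in all groups, such as clec-125 at 2.76 ± 0.318 CPM against 0.595 ± 0.375 (log2 fold change 2.21 ± 0.33, adjusted p = 0.00041). Among the abundant ones, clec-63 was at 1241, 1240.4, 1216, 1515 and 1426 CPM with the active form and 855, 939, 1048, 1059 and 949 CPM with the inactive form (log2 fold change 0.45 ± 0.07, adjusted p = 0.00077). clec-150 was at 262 ± 18.6 CPM against 177 ± 12.64 (log2 fold change 0.57 ± 0.06, adjusted p = 1.2e-05), and clec-50, clec-56 and clec-62 rose by 0.30, 0.58 and 0.46 on the log2 scale. The 4 lower members were clec-209, clec-266, clec-264 and clec-160. With a filter of at least 50 counts in 5 libraries, which removes rare transcripts, 23 lectins were higher. The 5 ACP7 OE libraries alone can meet that filter, so the count is not free of lectins that are high only there. Near-identical lectin copies may share reads, since how multiply aligned reads were handled is unknown.

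The nearly absent set belonged to the 106 genes past 8-fold, of which 23 were C-type lectins, 4 fipr (small secreted peptides), 4 srlf, 3 nas (astacin metalloproteases), 3 scl, 2 ins (insulin-like peptides) and 2 try (trypsin-like proteases), with 59 that carry no family name. Summed over the 106 genes, the level was 297, 171, 265, 230 and 248 CPM with the active form, against 4.19, 3.49, 3.56, 3.18 and 6.82 CPM with the inactive form and 26.8 to 35.6 CPM in wild type. The wild type sum came mostly from T21C9.6 (22.9 CPM), ttr-23 (2.75 CPM) and ins-19 (2.54 CPM). Over the other 103 genes, whose wild type means were each under 0.5 CPM, the sum was 2.77 to 4.59 CPM in wild type, 2.97 to 6.66 CPM with the inactive form and 138 to 274 CPM with the active form. Over all 106, the median gene was at 1.28 CPM in ACP7 OE, 0.00815 in ACP7-7A OE and 0.0101 in wild type. In 43 of these genes no read was counted in any ACP7-7A OE library. Since the same change was the rule for this set, these values describe it and test nothing.

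clec-94 was at 5.92, 2.77, 4.75, 5.63 and 6.05 CPM in the 5 ACP7 OE libraries, with a single count over the 5 ACP7-7A OE libraries and none in wild type. The ratio of its levels was 1170, with a binomial 95% counting interval of 210 to 46400 (adjusted p = 2e-09). clec-208 had a ratio of 541 (interval 149 to 4470; adjusted p = 4.9e-08). clec-197 was at 13.7, 6.81, 10.6, 11.9 and 8.796 CPM with the active form and 0, 0.0404, 0, 0 and 0.285 CPM with the inactive form (log2 fold change 7.19 ± 0.66, adjusted p = 0.00011). ACP7 OE library 2 was the lowest of its group for clec-94 and clec-197, and still far above every ACP7-7A OE library. Counting intervals cover counting error only, and several of these genes sit beside each other. The intervals also take every count as independent. Mates appear to have been counted separately, so the intervals are likely too narrow even for counting error.

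Genes without a known role followed the same pattern. F59B2.12 was at 13.7, 8.903, 16.7, 14.7 and 16.1 CPM with the active form and 0.09001, 0, 0, 0 and 0.367 CPM with the inactive form (log2 fold change 7.17 ± 0.68, adjusted p = 0.00021). K12H6.4, with no count in ACP7-7A OE, was at least 294-fold higher, measured against a floor of 3 counts over the group. By the same floor clec-137 was at least 277-fold, K12H6.9 at least 265-fold, clec-207 at least 248-fold and tag-329 at least 240-fold higher. Mates appear to have been counted separately, so 3 counts stand for fewer than 3 read pairs. A floor of 3 read pairs would make these folds smaller. Of the peptide hormones, ins-31 was at 6.997, 3.65, 5.26, 4.62 and 4.398 CPM with the active form and 0, 0.0808, 0, 0 and 0.0815 CPM with the inactive form (log2 fold change 7.08 ± 0.51, adjusted p = 2e-07). ins-19, its neighbour, was at 5.12, 5.64, 5.06, 5.71 and 5.32 CPM with the active form, against 0.9001, 0.525, 0.1301, 0 and 0.163 CPM with the inactive form and 2.54 ± 1.096 in wild type (log2 fold change 3.95 ± 0.63, adjusted p = 0.0039). Of 21 insulin-like peptide genes tested these 2 were the ones that passed, and none was lower.

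Of the 213 genes higher by at least 2-fold, 51 lay next to another such gene. Tested genes that follow each other within 10000 bases and pass in the same direction with at least a 2-fold change formed 22 runs of higher genes (51 genes) and 3 runs of lower genes (7 genes). The 2 longest had 4 genes each: K12H6.4, K12H6.9, K12H6.5 and K12H6.8 on chromosome II from 2823707 to 2828605, and C16C8.19, C16C8.7, C16C8.9 and Y49F6B.20 on chromosome II from 3458487 to 3470649. clec-94, clec-95 and clec-96 formed a run of 3 on chromosome I from 11146448 to 11151975, and clec-136, clec-137 and clec-138 another on chromosome II. The last 3 lie over pqn-35 on the opposite strand. Neighbouring genes are not independent of each other. The rate of such runs among other genes was not worked out, so these counts only describe positions.

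A pair of neighbouring genes on chromosome V had no read in ACP7-7A OE but was transcribed in the other groups. T21C9.6 (10581887 to 10587077, plus strand) was at 15.96, 24.4, 27.7, 26.8 and 27.1 CPM in ACP7 OE and 27.1, 22.8, 21.2, 24.3 and 19.2 CPM in wild type, and no read was counted in any of the 5 ACP7-7A OE libraries. Against the floor of 3 counts used above, with the same limit, T21C9.6 was at least 1850-fold higher in ACP7 OE (adjusted p = 7.6e-10). ttr-23, a transthyretin-like gene that comes next on the minus strand, was also at 0 in all 5. By that floor it was at least 174-fold higher in ACP7 OE. Farther along, T21C9.13 (10597266 to 10598666) was at 142, 133, 134, 122 and 124 CPM with the active form and 58.8, 60.9, 45.8, 52.3 and 48.5 CPM with the inactive form (log2 fold change 1.30 ± 0.08, adjusted p = 8.7e-09). The gene between, T21C9.9, was low but not absent, at 0.437 CPM in ACP7 OE, 0.462 CPM in ACP7-7A OE and 0.686 CPM in wild type. It did not pass (log2 fold change -0.08 ± 0.51, adjusted p = 0.95), so the absence of reads in ACP7-7A OE did not extend to T21C9.9. The flanking genes did not pass, with lpd-9 before the stretch at 88.6 ± 4.27 CPM against 89.9 ± 4.903 and scpl-4 after it at 128 ± 3.06 against 126 ± 5.76. Since all 5 libraries come from 1 strain, the construct and the strain's own genome cannot be told apart here.

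The genes that were lower by the largest folds were F56A4.3, irld-35 and C38D9.2, all on chromosome V. F56A4.3 was at 5.32, 8.54, 6.91, 5.41 and 7.55 CPM with the active form and 26.1, 29.3, 38.7, 37.6 and 43.8 CPM with the inactive form, 5.22-fold lower (log2 fold change -2.38 ± 0.17, adjusted p = 4.8e-07), beside 46.7 ± 1.99 in wild type. Its neighbours irld-35 and F56A4.2 were lower as well and made a run of 3 from 2453414 to 2460893. C38D9.2 was at 9.59, 10.02, 9.89, 10.7 and 9.22 CPM with the active form and 38.98, 34.9, 36.6, 42.1 and 34.4 CPM with the inactive form (log2 fold change -1.92 ± 0.09, adjusted p = 3.1e-10). Wild type stood above both constructs there, at 153 ± 21.1 CPM. F15D4.5 had 6.06 ± 0.747 CPM against 19.5 ± 1.09 (log2 fold change -1.69 ± 0.11, adjusted p = 4.6e-08), with wild type again above both at 28.4 CPM. rnh-1.3, a ribonuclease H gene, had the other order: 3.95 ± 0.494 CPM in ACP7 OE, 4.35 ± 0.318 in wild type and 12.5 ± 0.907 in ACP7-7A OE (log2 fold change -1.66 ± 0.13, adjusted p = 2.5e-07). T22B7.7 (-1.92), dhs-26 (-1.85) and oac-32 (-1.79) were the other genes below -1.7, and dhs-26 overlaps ZK816.1 on the opposite strand. By chromosome, the share of genes lower in ACP7 OE was 5.41% on X (117 of 2161) and 2.2% to 3.05% on the autosomes, while the share higher was 5.62% on V and 3.13% to 4.04% elsewhere in the nuclear genome.

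Of the 12 protein-coding genes of the mitochondrial genome, 6 were lower in ACP7 OE, 1 was higher, and the median was -0.26. ND1, a subunit of complex I, was at 393, 382, 352, 384 and 336 CPM with the active form and 557, 572, 568, 604 and 581 CPM with the inactive form (log2 fold change -0.64 ± 0.05, adjusted p = 3.7e-07). ATP6 of the ATP synthase (log2 change -0.47, adjusted p = 1.6e-05), COX3 of cytochrome oxidase (log2 change -0.42, adjusted p = 0.0001) and ND2 (log2 change -0.52, adjusted p = 0.00062) were lower too, and COX1 and ND4 made up the 6. CYTB was the higher one (log2 change 0.19, adjusted p = 0.011). Together the 12 protein-coding genes took 1.21% ± 0.0541 of the counts in ACP7 OE, 1.43% ± 0.0761 in ACP7-7A OE and 1.58% ± 0.158 in wild type (SD, n = 5 each). ND1 and ATP6 adjoin on the same strand, and poly(A) selection draws unevenly on mitochondrial RNA. Of 12 genes of the mitochondrial stress response, hsp-6, spg-7 and hsp-60 were lower by small amounts (-0.18, -0.17 and -0.21) and none was higher. Each of these 3 calls was lost without ACP7 OE library 3, 4 or 5, and those of spg-7 and hsp-60 without ACP7 OE library 2 or ACP7-7A OE library 3 or 4 as well. The call of hsp-60 was also lost without ACP7-7A OE library 1 or 2.

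Genes of the intracellular pathogen response, the programme that microsporidia and virus infection switch on in the gut, were higher for 6 of 24 tested and lower for none, with a median of 0.48. skr-4, a Skp1-related subunit of the CUL-6 ubiquitin ligase, was at 18.1, 22.01, 20.9, 24 and 24.02 CPM with the active form and 10.8, 10.1, 10.5, 13.2 and 11.7 CPM with the inactive form (log2 fold change 0.95 ± 0.11, adjusted p = 2e-05). rcs-1, the RING subunit of that ligase, was at 9.31 ± 1.83 CPM against 4.04 ± 0.601 (log2 fold change 1.20 ± 0.17, adjusted p = 0.00018), and skr-3 at 25.2 ± 5.26 against 14.8 ± 2.19 (log2 fold change 0.76 ± 0.14, adjusted p = 0.0037). The regulators pals-24, pals-17 and pals-23 passed, while cul-6 did not (log2 fold change 0.47 ± 0.30, adjusted p = 0.39). Without ACP7 OE library 4, 3 members were higher, and pals-24 lost its call. Among effectors of the p38 pathway, the other main gut immune route, 2 of 13 were lower, sysm-1 (log2 change -0.71, adjusted p = 0.0032) and C32H11.4 (log2 change -0.92, adjusted p = 0.026), and none was higher; the call of C32H11.4 was lost without any of 5 single libraries.

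Of 15 cytosolic heat shock genes, 4 were higher and none was lower, with a median of 0.32. hsp-70, the heat-inducible chaperone, was at 5.32, 9.34, 7.51, 7.51 and 6.47 CPM with the active form and 1.89, 1.94, 3.56, 4.497 and 3.59 CPM with the inactive form (log2 fold change 1.23 ± 0.24, adjusted p = 0.004), and it overlaps uggt-2 on the opposite strand. The small heat shock genes hsp-16.2 (log2 change 2.17, adjusted p = 0.0069), hsp-43 (log2 change 0.32, adjusted p = 0.011) and hsp-16.41 (log2 change 1.12, adjusted p = 0.032) passed as well. hsp-16.2 is also the 1 gene of 18 targets of the longevity factor DAF-16 that passed. The call of hsp-16.41 was lost without any of 5 single libraries. Endoplasmic reticulum chaperones and secretion genes gave 1 higher (sec-62) and 1 lower (dnj-27) of 27, and oxidative defence genes 1 higher (trx-2) of 16. The call of sec-62 was lost without any of 6 single libraries, that of trx-2 without any of 5 and that of dnj-27 without ACP7 OE library 4. Proteasome subunits gave no call in 33.

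Structural and identity genes of the intestine, the tissue that carries the construct, were higher for 4 of 17 tested, with a median of 0.25 and 16 of 17 fold changes above 0. ifd-2, an intermediate filament of the gut's terminal web, was at 23.98, 25.98, 32.6, 30.5 and 33.8 CPM with the active form and 17.6, 13.4, 21.3, 18.9 and 15.3 CPM with the inactive form (log2 fold change 0.76 ± 0.13, adjusted p = 0.001). nhx-2, a sodium-proton exchanger of the gut (log2 change 0.43, adjusted p = 0.015), ifo-1, the organiser of those filaments (log2 change 0.39, adjusted p = 0.018), and ifd-1 (log2 change 0.48, adjusted p = 0.041) were the other 3. Their summed level was 1898 to 2212 CPM in ACP7 OE, beside 1492 and 1512 CPM for ACP7-7A OE libraries 1 and 2, with the other 3 of the group at 1800 to 1905 CPM. Without ACP7 OE library 4, 2 were higher, and without library 5, 1 was. The call of ifd-1 was lost without any of 7 single libraries. In RNA of whole animals, more intestinal cells and more RNA per intestinal cell cannot be told apart, and this holds for every tissue here. The part of this intestine-wide level in the protease, lysozyme and lectin differences was not tested. The 6 vitellogenins, the yolk proteins made by the same cells, gave no call, with vit-3 at 6761 ± 299 CPM against 5950.0 ± 759 (log2 fold change 0.18 ± 0.07, adjusted p = 0.14).

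**Figure D4:**
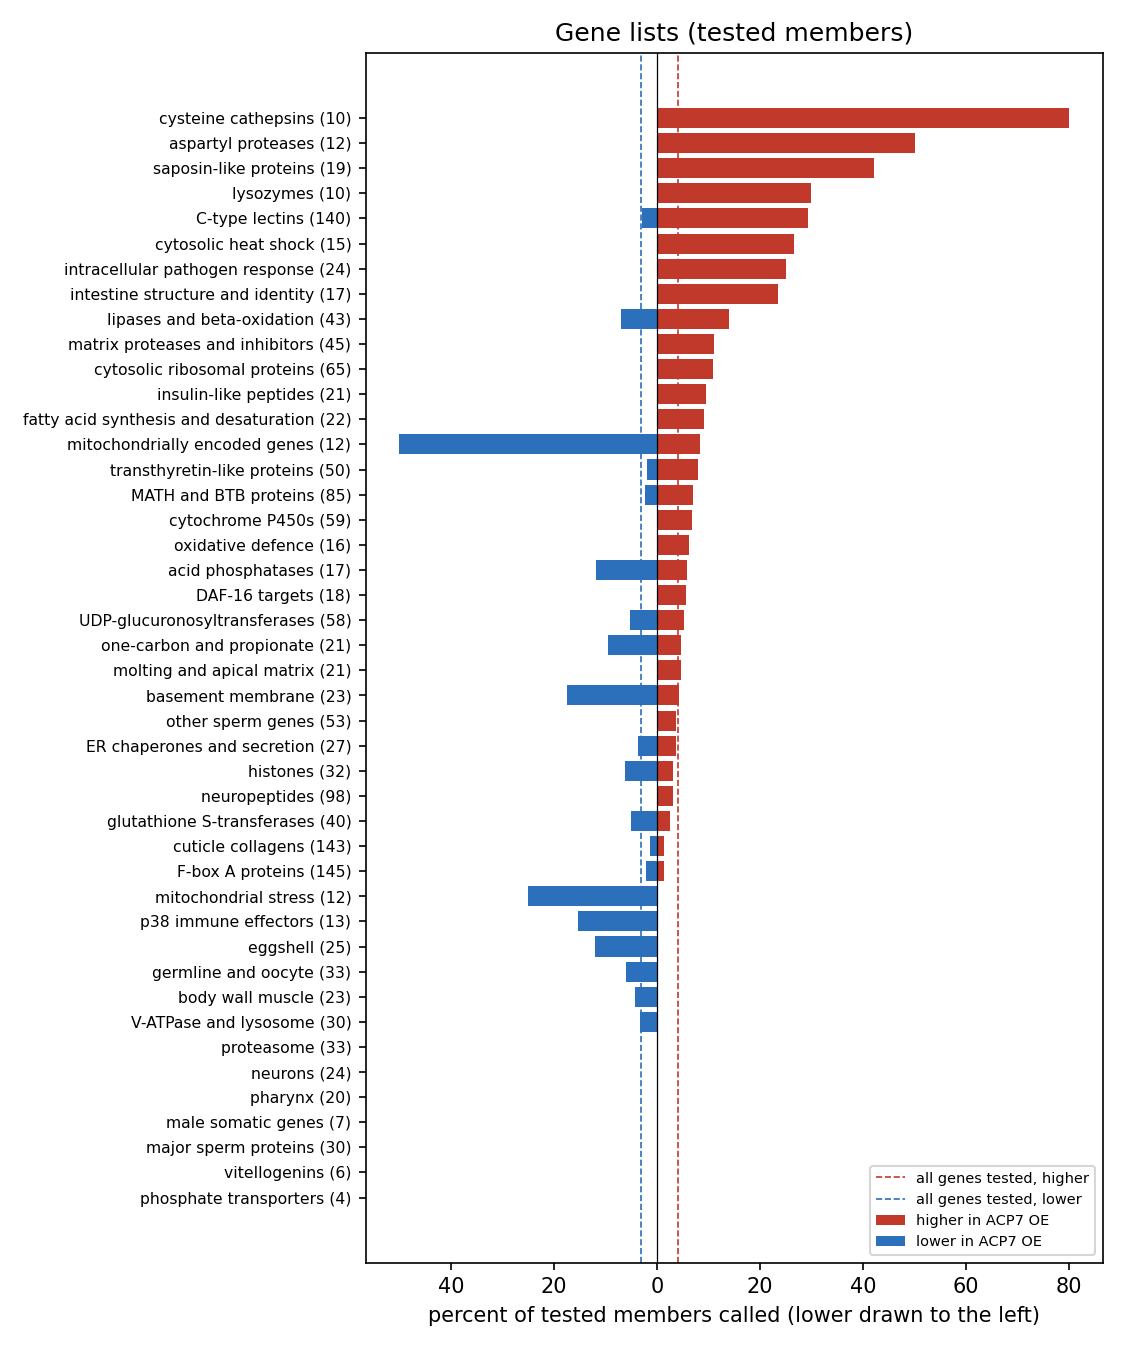
Percent of the tested members of each of the 44 gene lists that were higher (red, right) or lower (blue, left) in ACP7 OE, with the number tested in brackets and the shares over all genes tested, 4.17% and 3.04%, as dashed lines. Cysteine cathepsins (80%), aspartyl proteases (50%) and saposin-like proteins (42.1%) have the longest red bars.

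Enzymes of metabolism and detoxification gave few calls, with the largest folds among the UDP-glucuronosyltransferases, which attach sugars to foreign and waste molecules. The counts of this paragraph stand beside 4.17% higher and 3.04% lower over all genes tested. ugt-64, a UDP-glucuronosyltransferase, was at 74.3, 78.8, 78.5, 71.05 and 78.1 CPM with the active form and 24.5, 29.7, 29.2, 32.2 and 29.1 CPM with the inactive form, with wild type at 34.99 ± 1.47. It was 2.63-fold higher (log2 fold change 1.40 ± 0.07, adjusted p = 1.4e-09). Of 58 UDP-glucuronosyltransferases 3 were higher and 3 were lower (5.17% each), near the shares over all genes. The lower ones were rare transcripts: ugt-4 was at 1.25 ± 0.286 CPM against 3.05 ± 0.769 (log2 fold change -1.28 ± 0.25, adjusted p = 0.0045), and ugt-30 (log2 change -1.20, adjusted p = 0.015) and ugt-11 (log2 change -1.12, adjusted p = 0.014) were the other 2. Without ACP7-7A OE libraries 1 and 2, 11 of this family were lower and 4 higher, while the number lower over all genes rose from 464 to 901. Of 59 cytochrome P450 genes 4 were higher, led by cyp-35A2, a fat- and xenobiotic-related gene (log2 change 0.82, adjusted p = 0.0033), and none was lower. Glutathione S-transferases gave 1 higher and 2 lower of 40. asah-2, an acid ceramidase-like gene, was at 81.8, 86.9, 78.7, 87.4 and 86.9 CPM with the active form and 53.2, 50.02, 52.9, 50.7 and 48.2 CPM with the inactive form (log2 fold change 0.73 ± 0.05, adjusted p = 2.1e-07), and F27E5.3 overlaps it on the opposite strand. Of 22 genes of fatty acid synthesis and desaturation, the desaturases fat-6 (log2 change 0.28, adjusted p = 0.0021) and fat-2 (log2 change 0.24, adjusted p = 0.013) were higher. Of 43 lipases and beta-oxidation genes 6 were higher, among them acdh-1, an acyl-CoA dehydrogenase (log2 change 0.35, adjusted p = 0.00074), and the lysosomal lipase lipl-5 (log2 change 0.32, adjusted p = 0.00093), and 3 were lower, among them acdh-7 (log2 change -0.30, adjusted p = 0.0033). One-carbon and propionate genes gave 1 higher (hphd-1) and 2 lower (pccb-1 and mmcm-1) of 21. These calls were lost without any of 5 single libraries for hphd-1, 5 for pccb-1 and 8 for mmcm-1. The call of fat-2 was lost without ACP7 OE library 4. Without ACP7 OE library 4 or 5, 3 lipase and beta-oxidation genes were higher, and without library 1, 5 UDP-glucuronosyltransferases were.

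Reproductive RNA separated the libraries more than the constructs. No gene of the 30 major sperm proteins tested passed, although 29 of 30 fold changes were above 0 and the median was 0.71. The summed level of that list was 340.1 to 516.2 CPM in ACP7 OE, beside 81.08 and 78.24 CPM for ACP7-7A OE libraries 1 and 2, 367.5 to 378.4 CPM in the other 3 of that group, and 159.5 to 248.9 CPM in wild type. Without ACP7-7A OE libraries 1 and 2, the median was 0.18. Among 53 other sperm genes 2 were higher, nspd-9 (log2 change 2.05, adjusted p = 0.0072) and spe-8 (log2 change 1.71, adjusted p = 0.042), with the same median of 0.71 and the same fall to 0.18, and the call of spe-8 was lost without any of 9 single libraries. Of 25 eggshell genes 3 were lower, none was higher and 22 did not pass, with a median of -0.07 and 8 fold changes above 0. perm-4, a protein of the eggshell's outer layers, was at 1189, 1010.4, 954, 969.7 and 1019 CPM with the active form and 1379.5, 1562, 1478, 1453 and 1502 CPM with the inactive form (log2 fold change -0.52 ± 0.06, adjusted p = 2.2e-05). perm-2 (log2 change -0.39, adjusted p = 0.00018), which overlaps C44B12.6 on the opposite strand, and the chondroitin proteoglycan cpg-1 (log2 change -0.27, adjusted p = 0.012) were the other 2. Their list summed to 10800 to 12950 CPM in ACP7 OE, beside 14120 and 14830 CPM for ACP7-7A OE libraries 1 and 2, with the other 3 of the group at 12280 to 12930 CPM, and 4 members were lower without those 2 libraries. Of 33 germline and oocyte genes, mex-5 (log2 change -0.27, adjusted p = 0.024) and mex-3 (log2 change -0.23, adjusted p = 0.032), maternal RNA-binding proteins, were lower. Both calls were lost without ACP7 OE library 2, 3, 4 or 5 or ACP7-7A OE library 2, that of mex-3 also without ACP7-7A OE library 1 or 3, and without ACP7-7A OE libraries 1 and 2 together no gene of the list was lower. Without ACP7 OE library 1, 10 germline and oocyte genes and 5 eggshell genes were lower, while the number lower over all genes rose from 464 to 890. Male somatic genes gave no call in 7 tested.

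**Figure D5:**
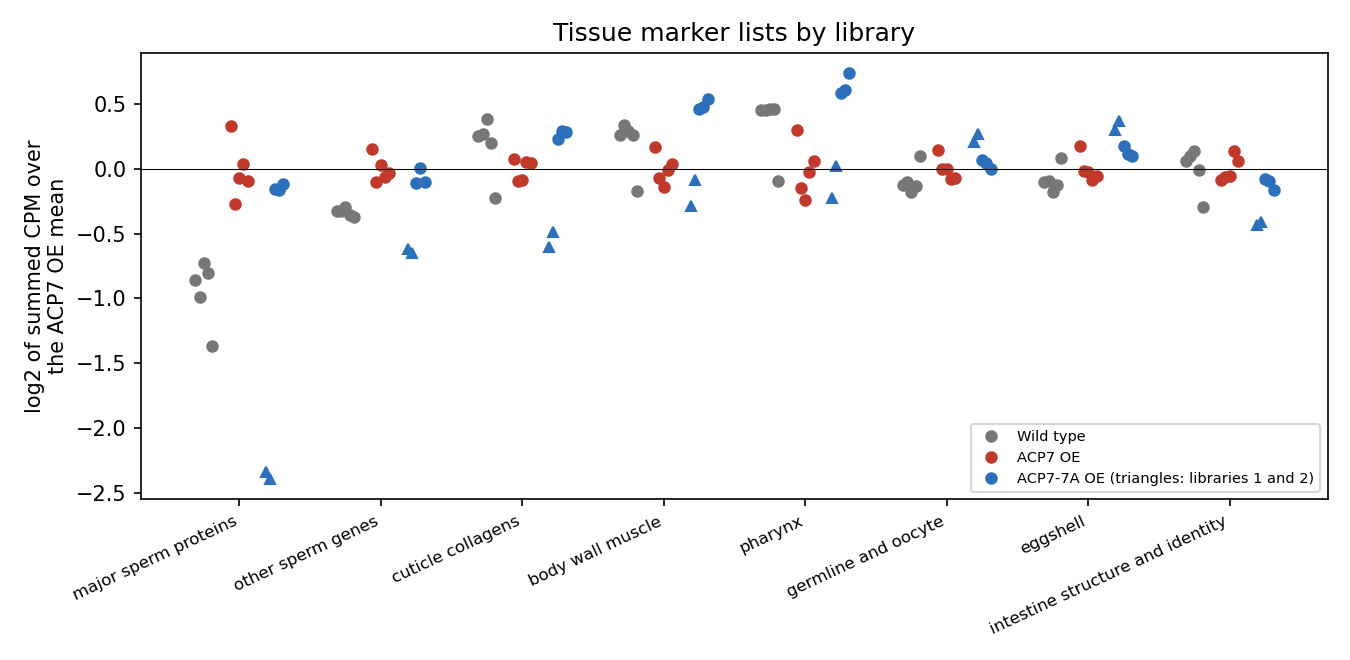
Log2 of the summed CPM of 8 tissue marker lists in each library over the ACP7 OE mean. Triangles mark ACP7-7A OE libraries 1 and 2, which lie far below all other libraries for major sperm proteins (81.08 and 78.24 CPM), lowest for other sperm genes (308.4 and 302.1 CPM beside 366 to 387.1 CPM in wild type) and below libraries 3 to 5 of their group for collagens and muscle.

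Cuticle, muscle and nerve lists held few calls in all 10 libraries and more once ACP7-7A OE libraries 1 and 2 were left out. Leaving these 2 out also raised the number lower over all genes from 464 to 901. Of 23 body wall muscle genes 1 was lower, unc-89, a giant sarcomere protein (log2 change -0.74, adjusted p = 0.048), whose call was lost without any of 7 single libraries and which overlaps clec-89 on the opposite strand. In all, 18 were lower without those 2 libraries. Their summed level was 6048 to 7481 CPM in ACP7 OE, beside 5442 and 6286 CPM for ACP7-7A OE libraries 1 and 2, with the other 3 of the group at 9169 to 9689 CPM. Of 143 cuticle collagens 2 were higher and 2 lower, and without the 2 libraries 7 were higher and 31 lower. Their sums were 20340 to 22910 CPM in ACP7 OE, beside 14270 and 15500 CPM for ACP7-7A OE libraries 1 and 2. The other 3 of the group were at 25390 to 26530 CPM. The same step moved the number lower from 0 to 8 of 20 pharynx genes, from 0 to 6 of 24 neuron genes and from 0 to 10 of 98 neuropeptide genes. Of 23 basement membrane genes 4 were lower and 1 was higher, and 13 were lower without the 2 libraries. The laminin subunits lam-1 (log2 change -0.33, adjusted p = 0.0053) and lam-2 (log2 change -0.32, adjusted p = 0.01) were among the 4, as were spon-1 and dgn-1, and the collagen receptor ddr-1 (log2 change 0.50, adjusted p = 0.016) was the higher one. The calls of spon-1 and ddr-1 were lost without ACP7 OE library 4. Of the neuropeptide genes 3 were higher, led by nlp-40, a peptide that the intestine itself releases to time defecation, at 169, 177, 178, 197 and 186 CPM with the active form and 131, 145, 134, 132 and 135 CPM with the inactive form (log2 fold change 0.42 ± 0.05, adjusted p = 6e-05); flp-28 and nlp-36 overlap genes on the opposite strand, and the call of nlp-36 was lost without any of 7 single libraries. Without ACP7-7A OE library 1 alone, 5 muscle genes, 5 neuropeptide genes and 7 basement membrane genes were lower. Molting and apical matrix genes gave 1 higher of 21, the astacin protease nas-37 (log2 change 0.57, adjusted p = 0.0042), and matrix proteases and inhibitors 5 higher of 45, including nas-24, nas-17 and nas-19 of the nearly absent set.

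The remaining lists gave few calls, which stand beside 4.17% higher and 3.04% lower over all genes tested. Transthyretin-like genes gave 4 higher and 1 lower of 50, led after ttr-23 by ttr-46 (log2 change 0.44, adjusted p = 0.00012). F-box A genes gave 2 higher and 3 lower of 145. Among the lower ones was fbxa-195, a pseudogene just upstream of ges-1, whose promoter both constructs carry. It was at 0 in every wild type library, 22.8 ± 2.52 CPM with the active form and 30.6 ± 3.33 with the inactive form (log2 fold change -0.43 ± 0.10, adjusted p = 0.01). Whether its reads come from the construct was not tested. MATH and BTB domain genes gave 6 higher and 2 lower of 85, and the higher ones included math-38 (log2 change 1.79, adjusted p = 0.00067), math-45 (log2 change 1.08, adjusted p = 0.0041) and math-18 (log2 change 1.31, adjusted p = 0.011). Cytosolic ribosomal proteins gave 7 higher of 65, by small amounts such as 0.19 for rps-24, and histones 1 higher and 2 lower of 32, with the linker histone his-24 (log2 change -0.51, adjusted p = 0.0002) among the lower. The ribosomal count was 1 without ACP7 OE library 2 or 3 or ACP7-7A OE library 1, 2 without ACP7 OE library 4 and 3 without ACP7-7A OE library 3. Without ACP7 OE library 1, 9 F-box A genes were higher, and without library 4, 3 MATH and BTB genes were. Over all genes, 876 were higher in the first of these fits and 396 in the second, beside 636 with all 10 libraries. Without ACP7-7A OE libraries 1 and 2, 5 acid phosphatases and 4 p38 effectors were lower, with none higher. Secretion genes gave 5 lower and 1 higher, glutathione S-transferases 6 lower and 1 higher, and transthyretin-like genes 5 lower and 5 higher. Cytochrome P450 genes gave 8 higher and 3 lower, and DAF-16 targets 4 higher and 3 lower. In that fit 11 ribosomal proteins and 3 vitellogenins were higher, with none lower. That fit also raised the calls over all genes, from 464 to 901 lower and from 636 to 863 higher.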

How the data were processed

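Poly(A) RNA of whole worms was sequenced by the study. The authors deposited raw counts per gene, and the header of that file names featureCounts 2.0.6. Per the submitters' processing notes, the reads passed through Trim Galore and STAR, whose versions the notes omit, with WBcel235 as genome. How strand, multiply aligned reads and mates were handled is not given in the sources used here. Between 81.3% and 86.1% of counts from 5 to 39 were even, so mates appear to have been counted separately. Genes with enough counts (filterByExpr) were scaled by TMM and tested with edgeR 4.0.16 (glmQLFit, robust, and glmQLFTest) in R 4.3.3 on the 10 libraries, with Benjamini-Hochberg adjustment over all 15242 and a threshold of 0.05. Levels are TMM-scaled CPM and the SE is that implied by the test. Gene coordinates and names come from the deposited table and the WBcel235 annotation. The computation was tested on simulated data.

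The 44 gene lists and the genes to be named were chosen with earlier results of these data known. The naming rule took the parts of the construct, the 15 highest and 15 lowest fold changes without overlap at an average log2 CPM of at least 1, up to 4 genes per list with the smallest p, the longest runs of neighbours and the 5 smallest remaining p-values. Genes outside it, such as cpr-1, the abundant C-type lectins and acp-7, were chosen after their values were seen. DESeq2 1.42.0, other scalings and filters, a replicate block and left-out libraries were alternatives. No sequence is shown.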

Additional observations from a re-analysis of the deposited data

Results flagged for a closer look

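Each named gene was looked at in each group of 5 libraries for a library far from the other 4, by the gap to its nearest neighbour over the range of the group (limit 0.71). This marked 23 of 313 gene and group pairs, and chance marks about 1 in 20. ACP7 OE library 1 accounted for 11. It was high in unc-54 (1420 CPM, others 912 to 1030), myo-1 (34.4, others 17.9 to 20.3), mex-3 (503, others 422 to 436), perm-4 (1190, others 954 to 1020), cpg-1 (1480, others 1230 to 1270), col-96 (25.3, others 20.3 to 21.6), gst-7 (136, others 118 to 121), gst-27 (79.3, others 66.7 to 69.9) and acdh-7 (71.1, others 60.5 to 63.2). It was low in T21C9.6 (16 CPM, others 24.4 to 27.7) and sec-62 (63.7, others 87.5 to 91.9).

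ACP7-7A OE library 1 was low in spp-23 (24.1 CPM, others 30.8 to 32.3) and nas-37 (11.7, others 17.3 to 18.1) and high in dpy-7 (9.32, others 7.21 to 7.74) and dnj-27 (44.2, others 36.4 to 38). Library 2 of that group was high in lys-4 (54 CPM, others 34.5 to 38.1) and low in pals-24 (2.34, others 4.68 to 5.12). Library 4 held more Y51A2D.8 (0.622 CPM, others up to 0.0808). Library 5 held more F59B2.12 and pqn-84 (0.367 CPM for each, others up to 0.09) and less gsto-3 (10.8, others 11.5 to 11.8). In ACP7 OE, library 2 was high in oac-32 (1.61 CPM, others 0.584 to 0.848) and library 5 in cyp-37A1 (25 CPM, others 17.8 to 19.5).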

How the results depend on the processing

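The count of changed genes, 1100 with all 10 libraries, was 1113 with RLE scaling, 1619 with DESeq2, 1196 with no filter, 991 with at least 50 counts in 5 libraries, 1346 with all 15 libraries in the fit, 1099 with counts halved and 1098 without transgene and ribosomal RNA. Leaving out 1 library gave 629 to 1766 changed genes, 396 to 876 higher, 233 to 890 lower and 194 to 295 changed at least 2-fold. Without ACP7-7A OE libraries 1 and 2 these were 1764 changed, 863 higher, 901 lower and 385 at least 2-fold. Without ACP7 OE library 1 as well, an alternative chosen after seeing the data, they were 2965, 1503, 1462 and 462. DESeq2 called 721 genes lower, and the filter of 50 counts left 137 genes changed at least 2-fold. The cause of these shifts was not tested, beyond the smaller number of rare genes under the filter. No named and called gene changed sign in any alternative, but the balance of the calls did: lower genes outnumbered higher ones without ACP7 OE library 1 (890 against 876) and without ACP7-7A OE libraries 1 and 2. Leaving out the same 2 libraries turned the neuropeptides from 3 higher and 0 lower to 2 higher and 10 lower. Of 170 named genes 155 were called, and 114 kept the call in every alternative.

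The replicate numbers do not pair the libraries: the correlations of same-numbered libraries' deviations were -0.31, 0.21, -0.11, 0.09 and 0.02, and 0 of 5 ACP7 OE libraries correlated best with its own number. With the replicate block, 822 genes changed, 470 higher and 352 lower, of which 765 were among the 1100. Some fold changes rest on very few counts: 59 of the higher genes had at most 3 counts over the 5 ACP7-7A OE libraries. No lower gene had so few over the 5 ACP7 OE libraries. An average log2 CPM under 0 held for 95 higher and 4 lower genes, all of them changed at least 2-fold. These 95 are part of the 213 genes at least 2-fold higher.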

Other observations

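Some named gene families outside the lists held several changed members, chosen here after their values were seen. Of 12 galectins (lec), which bind galactose-containing sugars, 4 were higher in ACP7 OE and 1 was lower. lec-6 was at 551, 567, 496, 630.4 and 609 CPM with the active form and 389.7, 436, 390.1, 408 and 396 CPM with the inactive form (log2 fold change 0.50 ± 0.06, adjusted p = 5.4e-05), and lec-8 (log2 change 0.60, adjusted p = 0.011), lec-9 (log2 change 0.34, adjusted p = 0.0012) and lec-11 (log2 change 0.43, adjusted p = 0.0055) were the others, while lec-5 was lower (log2 change -0.28, adjusted p = 0.0016). Of 13 nspg genes 4 were higher, among them nspg-13 (log2 change 0.40, adjusted p = 0.005). Of 17 fipr genes 5 were higher. Of these, 4 belong to the genes past 8-fold, nearly absent outside ACP7 OE, which could enter the tested set through that group alone. The share of fipr genes may therefore partly restate the filter. fipr-13 was not past 8-fold, at 7.895 ± 1.16 CPM against 4.303 ± 0.932 (log2 fold change 0.87 ± 0.17, adjusted p = 0.004). Of 14 trypsin-like try genes 4 were higher, and 2 of these, try-8 and try-13, are past 8-fold, so the same limit may apply. try-13 was at 5.58, 2.63, 4.32, 4.23 and 4.798 CPM with the active form and 0.3601, 0.444, 0.434, 0.335 and 0.244 CPM with the inactive form (log2 fold change 3.56 ± 0.27, adjusted p = 2.2e-07). try-8 and try-11 overlap each other on opposite strands.

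Fewer families leaned the other way. Of 21 innexins, the subunits of invertebrate gap junctions, 3 were lower and none was higher: inx-3 (log2 change -0.35, adjusted p = 0.0019), inx-11 (log2 change -0.42, adjusted p = 0.022) and inx-2 (log2 change -0.31, adjusted p = 0.034). Of 13 nspc genes 3 were lower, led by nspc-4 (log2 change -1.51, adjusted p = 6.6e-05). Of 188 nuclear hormone receptors 4 were higher, with nhr-114, a gut receptor tied to diet and vitamin B12, at 117 ± 3.44 CPM against 78.9 ± 16.6 (log2 fold change 0.57 ± 0.12, adjusted p = 0.017), and 4 were lower. These shares stand beside 4.17% higher and 3.04% lower over all genes tested.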
